A study of Mus musculus with 6 samples.

Results

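Leukocyte adhesion molecules were examined in neutrophils from mouse bone marrow that had met *C. albicans*. The set was chosen by gene symbol and holds 9 of the 54532 genes in the table. It comprises the integrin subunits Itgam, Itgb2, Itgal, Itgax, Itga4 and Itgb1, the selectin ligand Selplg, the hyaluronan receptor Cd44 and the integrin ligand Icam1. RNA sequencing libraries came from 3 wild-type (WT) cultures, replicates 1 to 3, and 3 cultures lacking progranulin (PGRN KO), replicates 4 to 6. All mice were C57BL/6J according to the labels, and all cultures received live *C. albicans* for 6 h, so no uninfected neutrophils were compared. The labels give a multiplicity of infection of 1:1, and the published legend gives a different one. Neutrophils were isolated with magnetic beads against Ly-6G. WT and PGRN KO mice came from different suppliers, so genotype and source of the animals cannot be told apart. The mice were matched for sex and age, but no age is given. Nothing says that the cultures of a genotype came from separate mice, and the p-values then measure only the spread between these samples.

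A neutrophil leaves the blood in steps. It is slowed on the vessel wall through selectins that bind PSGL-1, the product of Selplg, and CD44, and it is then held by integrins. Integrins are pairs of an alpha and a beta chain: the beta2 chain (Itgb2) pairs with alphaL (Itgal, LFA-1), alphaM (Itgam, Mac-1) or alphaX (Itgax), and the beta1 chain (Itgb1) pairs with alpha4 (Itga4, VLA-4). Mac-1 also binds complement fragments and fungal beta-glucan, and ICAM-1 is a ligand of LFA-1 and Mac-1. Because surface integrin is partly held in granules and its activity is set by its shape, mRNA levels need not follow adhesion.

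Promoter sequences are shown for 4 members: the neighbours Itgam and Itgax, whose values lay on opposite sides of WT, Itga4, which fell most, and Icam1, whose PGRN KO replicates differed most. Each run is the 250 bases before the RefSeq start site on build GRCm38.p6, read 5′ to 3′ on the gene's strand, which is the plus strand for all 4. The positions are chr7:128062390-128062639 for Itgam, chr7:128129300-128129549 for Itgax, chr2:79255176-79255425 for Itga4 and chr9:21015690-21015939 for Icam1. Capitals mark matches, on either strand, to short motifs that were chosen after the values were seen. One is GAGGAA, the core of sites for the myeloid factor PU.1, and another is GGAAATTCC, a kappa B site. The GC box was searched as GGGCGG, which is bound by Sp1. The search also took in the TATA box, written as TATAAA, a signal that places the start of transcription. Sites of the AP-1 family were searched as TGANTCA, where N is any base.
Itgam: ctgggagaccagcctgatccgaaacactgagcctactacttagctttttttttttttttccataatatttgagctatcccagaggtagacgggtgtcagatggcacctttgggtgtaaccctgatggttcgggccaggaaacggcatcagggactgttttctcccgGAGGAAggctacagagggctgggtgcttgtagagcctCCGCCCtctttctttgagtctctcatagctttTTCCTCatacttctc
Itgax: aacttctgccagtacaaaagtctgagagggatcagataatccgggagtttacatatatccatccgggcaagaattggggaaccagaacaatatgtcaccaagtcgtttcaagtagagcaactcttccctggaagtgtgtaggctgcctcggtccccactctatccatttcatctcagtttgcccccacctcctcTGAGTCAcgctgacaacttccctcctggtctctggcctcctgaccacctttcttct
Itga4: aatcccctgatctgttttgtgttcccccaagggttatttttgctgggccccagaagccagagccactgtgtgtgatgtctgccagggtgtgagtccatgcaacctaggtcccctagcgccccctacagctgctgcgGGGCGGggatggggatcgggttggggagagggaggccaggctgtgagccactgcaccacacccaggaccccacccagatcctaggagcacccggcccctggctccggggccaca
Icam1: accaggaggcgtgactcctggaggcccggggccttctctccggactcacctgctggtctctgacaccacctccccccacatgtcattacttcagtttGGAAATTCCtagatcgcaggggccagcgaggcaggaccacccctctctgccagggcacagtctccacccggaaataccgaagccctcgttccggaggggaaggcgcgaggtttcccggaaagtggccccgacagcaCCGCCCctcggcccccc

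Of the 9 members, 6 matched a RefSeq window of 300 bases, the 250 shown plus the 50 after the start. Itgam held GAGGAA 84 bases before its start and, on the opposite strand, 15 bases before and 33 bases after it, and it held an opposite GC box 47 bases before the start. Among all 32851 windows, 28.3% held GAGGAA and 35.7% held the GC box. Itgax held none of these, and its one match was TGANTCA 56 bases before the start, a motif in 7.81% of windows. The Icam1 window carried GGAAATTCC 153 bases before the start, which 0.317% of windows (104) did. It also carried opposite GC boxes 17 bases before and 24 bases after the start and TATAAA 14 bases after it, and TATAAA was in 13.6% of windows. The Icam1 gene given with the FPKM values starts further on, at chr9:21015985. The matches after the RefSeq start lie before that position. Itga4 held a single GC box, 114 bases before its start. Itgb1 and Cd44 had windows too: Itgb1 held a GC box and GAGGAA, and Cd44 held GAGGAA at 2 opposite positions and a GC box. A match is a run of letters and was not tested as a binding site.

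Levels are given as FPKM, fragments mapped to a gene scaled by gene length and library size. They can be compared between genes, except where overlapping genes share reads. Changes are log2 fold changes of FPKM + 1, PGRN KO minus WT, and understate the change of low genes. A gene was called at a Benjamini-Hochberg adjusted p under 0.05 in limma, fitted to the 14807 genes averaging at least 0.1 FPKM, which included all 9 members. Grn, the deleted gene, was at 161 to 168 in the WT libraries and at 0.206 to 0.747 in the PGRN KO libraries. The libraries held 17290604 to 17799798 fragments (WT) or 17087344 to 18821091 (PGRN KO). The deposited scaling divided by a library size that differed from these sums: the sum was 1.03 to 1.04 times that size for WT and 0.946 to 0.957 times for PGRN KO. With plain totals the median log2 fold change of all genes moved from 0.0026 to 0.067. The higher genes then made up 69.7% of the calls instead of 44.4%, and in voom on the fragments 70.5%.

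Among the adhesion molecules, Itga4, Itgax and Cd44 fell in PGRN KO and Selplg rose. Thus 4 of 9 members were called, against 17.9% of all genes tested, or 25.6% of those averaging at least 1 FPKM. The 3 lower members compare with 9.95% of all genes called lower, and the 1 higher member with 7.94% called higher. The genotypes did not overlap for 7 members (37.7% of all genes). Of these, 5 were lower (19.6% of all genes) and 2 were higher (18.1%). The median log2 fold change of the members was −0.15, beside 0.0026 for all genes tested. With plain totals the members' median was −0.027, and 3 were called higher (Itgam, Itgal, Selplg) and 2 lower (Itga4, Itgax). The sign of each member was the same in the 4 other scalings tried. These were median-of-ratios, quantile scaling, plain totals and voom on the fragments, and they are not 4 separate checks. Median-of-ratios scaling nearly repeated the deposited values (2652 genes called against 2648), and voom used the plain totals again. In bulk samples, fewer cells of a type and less RNA per cell cannot be told apart.

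**Figure D1:**
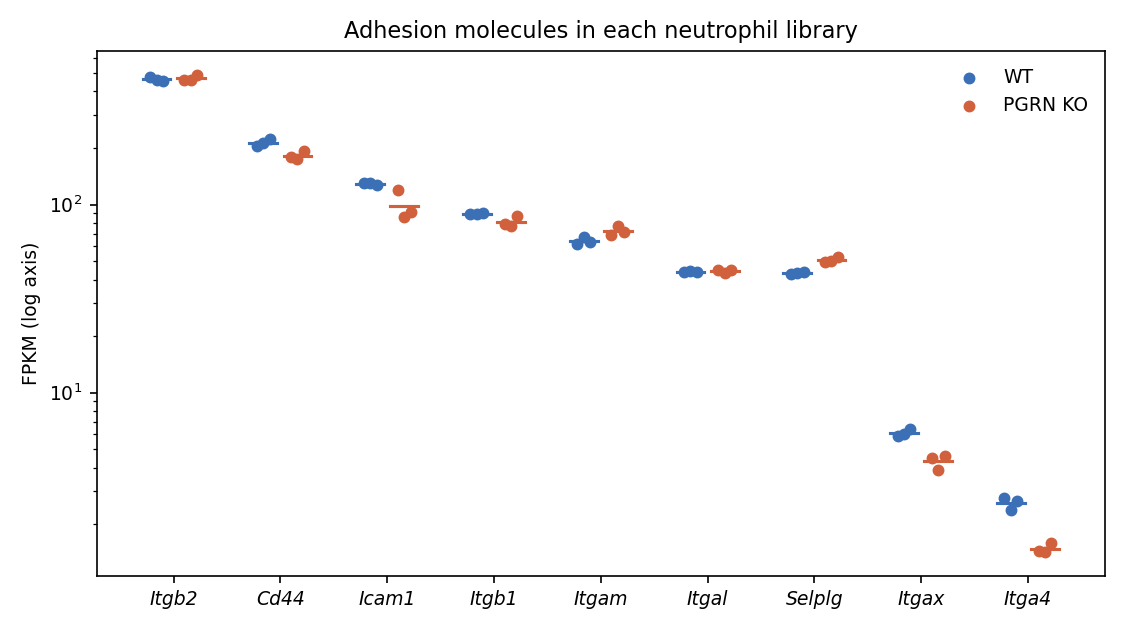
FPKM of the 9 adhesion molecules (log axis), with 1 point per library, WT replicates 1 to 3 and PGRN KO replicates 4 to 6, and bars at the group means. Itga4 and Itgax, the least abundant, separate clearly by genotype, while the Itgb2 and Itgal points of both genotypes intermingle.

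The molecules of the first contact moved in opposite directions. Selplg encodes PSGL-1, the main ligand of P-selectin on leukocytes (ENSMUSG00000048163, chr5:113818536-113832644, minus strand). Its FPKM was 42.7, 43.4 and 44.0 in WT and 49.4, 50.2 and 52.4 in PGRN KO. All 3 PGRN KO replicates were above all 3 WT replicates. The means were 43.3 ± 0.679 and 50.7 ± 1.56 (SD, n = 3 each), a rise of 16.9%. In limma the log2 fold change was 0.22 (SE 0.041, adjusted p = 0.0139). The call was lost without WT replicate 1 (adjusted p = 0.0539 in limma), WT replicate 2 (0.0588) or PGRN KO replicate 5 (0.0502).

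Cd44 binds hyaluronan and, on neutrophils, E-selectin (ENSMUSG00000005087, chr2:102811141-102901665, minus strand). It was the second most abundant member, at an FPKM of 205, 212 and 223 in WT and 179, 175 and 192 in PGRN KO. No PGRN KO replicate reached the lowest WT replicate. The mean went from 213 ± 8.59 to 182 ± 9.17, a drop of 14.7%, with a log2 fold change of −0.23 (SE 0.053, adjusted p = 0.0280 in limma). This call was the least stable of the 4. It held without PGRN KO replicate 6 (log2 fold change −0.27) and was lost on leaving out WT replicate 1, 2 or 3 or PGRN KO replicate 4 or 5, where limma's adjusted p lay between 0.0544 and 0.0990. With plain totals the change was −0.11 (adjusted p = 0.171 in limma).

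Of the beta2 family, Itgax fell, while Itgb2, Itgal and Itgam were not called, and of these 3 only Itgam had no overlap between genotypes. Itgb2, the shared beta2 chain (ENSMUSG00000000290, chr10:77530252-77565708, plus strand), was the most abundant member. Its FPKM was 475, 458 and 456 in WT and 462, 460.1 and 492 in PGRN KO. The groups overlapped, and PGRN KO replicate 6 was the highest library. The log2 fold change of Itgb2 was 0.025 (SE 0.044), with a 95% interval of −0.079 to 0.13 (adjusted p = 0.743 in limma).

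Itgal, the alpha chain of LFA-1 (ENSMUSG00000030830, chr7:127296260-127335138, plus strand), also overlapped. It had an FPKM of 43.8, 44.6 and 43.7 in WT and 45.2, 43.4 and 44.96 in PGRN KO. Both the lowest and the highest value were in PGRN KO. Its log2 fold change was 0.015 (SE 0.038), with a 95% interval of −0.076 to 0.11 (adjusted p = 0.824 in limma).

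Itgam, the alpha chain of Mac-1 (CD11b), lies on the plus strand at chr7:128062640-128118491 (ENSMUSG00000030786). WT libraries had an FPKM of 61.9, 67.4 and 63.4 and PGRN KO libraries of 69.3, 77.2 and 71.4. Each PGRN KO value was above each WT value, but the gap between the groups was smaller than the range within either. The means were 64.2 ± 2.88 and 72.6 ± 4.12, and the log2 fold change of 0.17 (SE 0.057, 95% interval 0.038 to 0.31) was not called (adjusted p = 0.0818 in limma). It was called in 3 of the 4 other scalings. These were quantile scaling, plain totals, at 0.29 (adjusted p = 0.0171 in limma), and voom, which uses the same totals. The protein-coding gene Gm49368 shares 3450 of the 5024 exonic bases of Itgam on the same strand and held 119 fragments in all, so how counting divided their reads is uncertain.

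Itgax encodes CD11c, the alphaX chain, best known from dendritic cells and also present on other myeloid cells (ENSMUSG00000030789, chr7:128129547-128150657, plus strand). The gene begins 11056 bases after the end of Itgam. Its FPKM was 5.87, 6.03 and 6.44 in WT and 4.48, 3.90 and 4.59 in PGRN KO. Every PGRN KO replicate was below every WT replicate. The mean fell from 6.11 ± 0.295 to 4.32 ± 0.370, by 29.3%, and the log2 fold change was −0.42 (SE 0.072, adjusted p = 0.0104 in limma). These values rest on 1492 fragments in WT and 1157 in PGRN KO, summed over replicates. The call was kept in all 6 fits that left out a replicate and in the 4 other scalings.

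The beta1 family members were both lower in PGRN KO, of which Itga4 was called. Itga4, the alpha4 chain of the VCAM-1 receptor VLA-4 (ENSMUSG00000027009, chr2:79255426-79333123, plus strand), was the least abundant member. Its FPKM was 2.75, 2.39 and 2.66 in WT and 1.44, 1.43 and 1.58 in PGRN KO. The groups were well apart, with the highest PGRN KO value far under the lowest WT value. The mean fell from 2.60 ± 0.185 to 1.48 ± 0.0842, by 43.0%. In limma the log2 fold change was −0.54 (SE 0.070, adjusted p = 0.00412). It rests on 1847 fragments in WT and 1156 in PGRN KO, and was called in all 6 fits without a replicate and in the 4 other scalings. Counting by strand is not stated, and the antisense gene Cerkl shares 1124 exonic bases with Itga4 but held 12 fragments in all.

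Itgb1 (ENSMUSG00000025809, chr8:128685654-128733200, plus strand), the beta1 chain that pairs with many alpha chains, was far more abundant than Itga4. Its FPKM was 88.9, 89.4 and 89.8 in WT and 78.5, 76.9 and 87.0 in PGRN KO. WT replicates were nearly equal, and PGRN KO replicate 6 lay close under them while replicates 4 and 5 lay further down. The means of 89.4 ± 0.451 and 80.8 ± 5.44 gave a log2 fold change of −0.15 (SE 0.054, 95% interval −0.27 to −0.017) that was not called (adjusted p = 0.115 in limma). Without PGRN KO replicate 6 it was −0.20 and was called (adjusted p = 0.0222 in limma). With plain totals it was −0.027.

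Icam1 encodes a ligand of LFA-1 and Mac-1 that neutrophils themselves make when activated (ENSMUSG00000037405, chr9:21015985-21028817, plus strand). Its FPKM was 130.0, 130.2 and 128 in WT and 120.1, 85.6 and 91.1 in PGRN KO. All PGRN KO replicates were lower than WT, but replicate 4 lay much nearer to WT than to replicates 5 and 6. The means were 129 ± 1.22 and 98.9 ± 18.6, and the coefficient of variation was 0.946% in WT and 18.8% in PGRN KO. The log2 fold change of −0.40 (SE 0.12, 95% interval −0.69 to −0.11) was not called (adjusted p = 0.0647 in limma). Without PGRN KO replicate 4 it was −0.55 and was called (adjusted p = 0.00306 in limma). An antisense gene, Gm47079, shares 511 exonic bases with Icam1 and held 6 fragments in all.

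**Figure D2:**
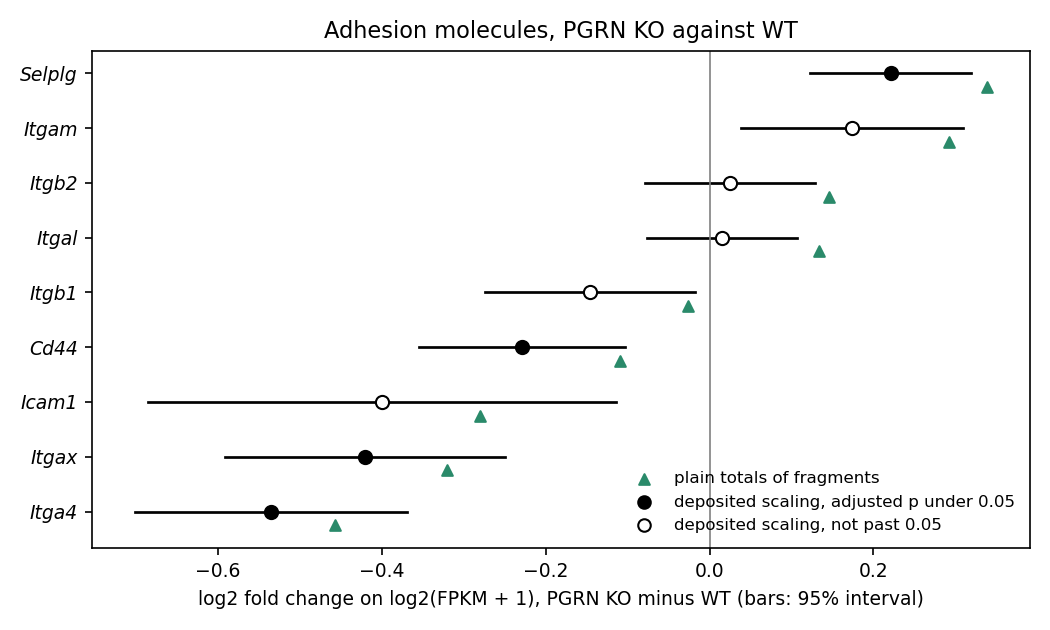
Log2 fold change of FPKM + 1 (PGRN KO minus WT) of each member, with points for the limma estimate, bars for the 95% interval, filled points for called members, and triangles for the value with plain totals of fragments. Itga4 and Itgax lie lowest, Selplg highest, and plain totals move every member upward without turning a sign.

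The order of mean levels was the same at both ends in the 2 genotypes, with Itgb2, Cd44 and Icam1 at the top and Itgax and Itga4 at the bottom. In the middle it differed. In WT, Itgb1 (89.4) was above Itgam (64.2) with no overlap, and the FPKM ranges of Itgal and Selplg overlapped. Reads that Itgam shares with Gm49368 may not all have been counted, so the place of Itgam in the order is uncertain. In PGRN KO the range of Icam1 overlapped that of Itgb1, and that of Itgb1 overlapped that of Itgam. The Selplg range of 49.4 to 52.4 lay wholly above the Itgal range of 43.4 to 45.2 there.

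Ratios of FPKM within each library do not depend on the scaling of libraries, and 12 ratios between members were compared with two-sided exact permutation tests. With 3 libraries against 3, the smallest p these tests can give is 0.10, so none could pass 0.05. Of the 12, 9 had no overlap (exact permutation p = 0.10, adjusted p = 0.133 over the 12). Many of them share a member, so the 9 are not separate results. Among single genes 37.7% of those tested had no overlap, and no such share was worked out for other pairs of genes. Itga4 per Itgb1 was 0.0309, 0.0268 and 0.0296 in WT and 0.0184, 0.0186 and 0.0182 in PGRN KO. All PGRN KO values were lower, and the log2 difference was −0.66. Itgax per Itgam fell from a mean of 0.0953 ± 0.00609 to 0.0598 ± 0.00808, a log2 difference of −0.68, again without overlap. The ratio of Itga4 to Itgam had the widest log2 difference, −0.99. The height of every ratio that holds Itgam is uncertain because of the reads shared with Gm49368. Itgax per Itgb2 differed by −0.53, Icam1 per Itgb2 by −0.43, Cd44 per Itgb2 by −0.26, Itgb1 per Itgb2 by −0.17 and Itgal per Itgam by −0.16, which was −0.097 without PGRN KO replicate 5. Selplg per Itgb2 was higher in PGRN KO, by 0.20.

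The remaining 3 ratios overlapped, and the height of those that hold Itgam is uncertain in the same way. The sum of the beta2-pairing alpha chains (Itgal, Itgam, Itgax and Itgad, of which Itgad was at 0 throughout) was 0.247 ± 0.0116 of Itgb2 in WT and 0.258 ± 0.0123 in PGRN KO (exact permutation p = 0.50, adjusted p = 0.545). Its log2 difference of 0.061 was 0.025 without WT replicate 1, 0.026 without PGRN KO replicate 5 and 0.095 without PGRN KO replicate 6. Itgam per Itgb2 was 0.139 ± 0.00848 and 0.154 ± 0.0120 (exact permutation p = 0.20, adjusted p = 0.24), and its log2 difference of 0.15 was 0.089 without PGRN KO replicate 5. Itgal per Itgb2 was 0.0951 ± 0.00264 and 0.0945 ± 0.00316 (exact permutation p = 0.80, adjusted p = 0.80), and its log2 difference of −0.0094 ranged from −0.034 to 0.014 on leaving out 1 replicate.

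**Figure D3:**
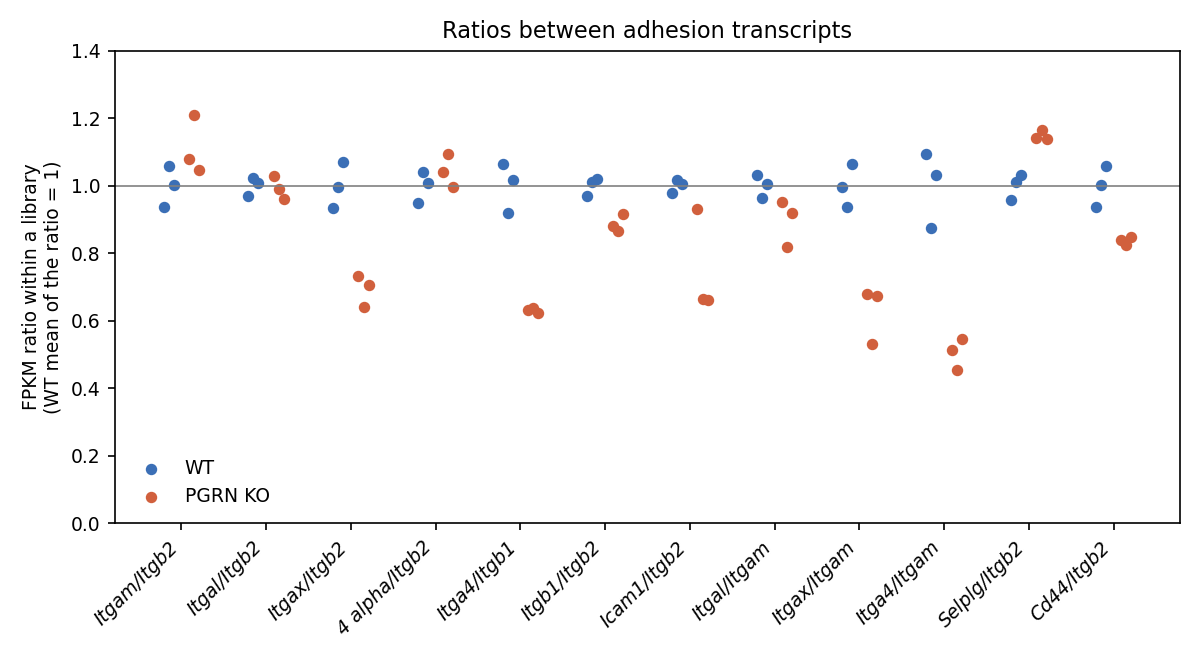
FPKM ratio between members within each library (linear axis, WT mean of the ratio set to 1), with 1 point per WT or PGRN KO replicate. The ratios of Itga4 and Itgax to other chains lie well below WT in all PGRN KO libraries, whereas Itgal per Itgb2 and the summed alpha chains (4 alpha) per Itgb2 overlap.

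Other genes of adhesion were read from 6 lists, whose counts stand beside 7.94% of all genes called higher and 9.95% called lower, 17.9% in all, or 25.6% of those averaging at least 1 FPKM. Of 20 further integrin subunits, 10 passed the filter, 1 rose and 2 fell, a share near that background (median log2 fold change −0.052). With plain totals 2 were called higher and 1 lower, and the median was 0.010. The beta5 chain Itgb5, a vitronectin receptor chain, went from an FPKM of 3.19 ± 0.0553 to 1.59 ± 0.108 (log2 fold change −0.69, adjusted p = 0.00115 in limma). Itga5, the fibronectin receptor chain that pairs with Itgb1, fell by 0.27 on the log2 scale (adjusted p = 0.0326 in limma), and Itgb3 rose by 0.30 (adjusted p = 0.0464). Without 1 replicate at a time, Itgb5 was called in 6 of 6 fits, Itga5 in 1 and Itgb3 in 0. Of 13 tested genes among 17 selectins and makers of selectin ligands, only Tpst1 was called, a sulfotransferase that modifies PSGL-1. It fell by 0.30 (adjusted p = 0.0305 in limma), was called in 1 of the 6 fits without a replicate, and the list's median was −0.014. With plain totals Tpst1 was not called (adjusted p = 0.0749 in limma), 3 other genes were called higher and 0 lower, and the median was 0.10. The abundant Cd24a was at 420 ± 18.6 and 413 ± 29.6 and was not called.

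The list of counter-receptors held both the highest and the lowest fold change among the tested genes of the 6 lists. Of 20 immunoglobulin-family adhesion molecules, 11 were tested, 1 rose and 4 fell, with a median of 0.031. With plain totals these counts were 3 and 3, and the median was 0.076. Vcam1, the ligand of the Itga4 and Itgb1 pair, had an FPKM of 17.0, 17.0 and 16.6 in WT and 28.4, 26.9 and 28.4 in PGRN KO. The groups did not overlap, and the log2 fold change was 0.69 (SE 0.043, adjusted p = 0.000324 in limma). The lower genes were Cd48 (log2 fold change −0.77), Alcam (−0.61), Pecam1 (−0.53), which acts in passage between endothelial cells, and Sirpa (−0.28), the receptor of CD47. Vcam1, Cd48, Alcam and Pecam1 were called in all 6 fits without a replicate and Sirpa in 4.

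Of 29 tested genes that activate integrins or tie them to actin, 5 rose and 5 fell. With plain totals 8 were called higher and 4 lower, and the median of −0.066 turned to 0.041. The higher genes were Rasgrp2 (log2 fold change 0.41), which activates the small GTPase Rap1, Coro1a (0.27), Flna (0.23), Rac2 (0.17) and Myo1f (0.17). The lower genes were Vav1 (−0.43), Fyb (−0.42), Cyth1 (−0.37) and the kinases Syk (−0.29) and Lyn (−0.23). Vav1, Fyb, Cyth1 and Syk were called in all 6 fits without a replicate, the others in 0 (Myo1f) to 5 (Flna). The abundant Rap1b and Fgr were not called, at log2 fold changes of −0.0074 and −0.15.

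Among proteases that cut adhesion molecules and their regulators, 8 of 10 were tested, 4 fell and 2 rose, with a median of −0.25. With plain totals 2 were called lower and 2 higher, with a median of −0.15, and Adam17 and Rhbdf2 were no longer called. Adam8, a protease able to cut PSGL-1, averaged 176 ± 2.31 FPKM in the WT libraries and 116 ± 2.91 in the PGRN KO libraries (log2 fold change −0.60, adjusted p = 0.000324 in limma). Adam9 (−0.31), the iRhom gene Rhbdf2 (−0.29) and Adam17 (−0.25), a sheddase of many surface proteins, were lower, and the neutrophil proteases Mmp9 (0.25) and Mmp25 (0.24) were higher. In the list of partners of CD44, 3 of 13 tested genes fell and 0 were called higher, with a median of −0.068. With plain totals 2 were called lower and 1 higher, with a median of −0.022. The 3 lower genes were the coreceptor Cd74 (log2 fold change −0.47), the hyaluronan-binding Tnfaip6 (−0.41) and Msn (−0.23), which links CD44 to actin. The abundant ligand Spp1 (−0.24) and Ezr (−0.22) were not called. Adam8, Cd74 and Tnfaip6 were called in all 6 fits without a replicate and Adam9 in 5, while the others of both lists were called in 1 to 3. The sign of each called gene named in the 6 lists was the same in the 4 other scalings.

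**Figure D4:**
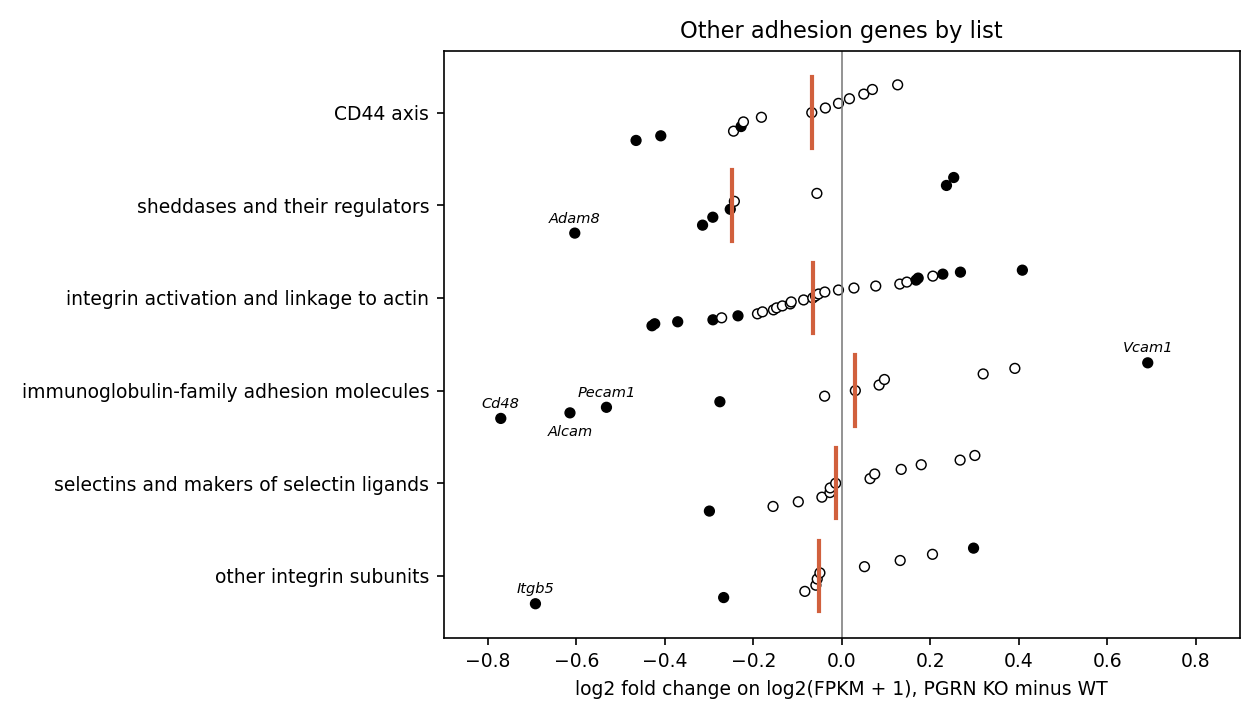
Log2 fold change (PGRN KO minus WT) of each tested gene in 6 adhesion lists, with filled points for called genes, open points for the others and bars at list medians. Most genes lie near 0, with Vcam1 far to the right and Cd48, Itgb5, Alcam, Adam8 and Pecam1 far to the left.

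Markers of other cells were read beside the adhesion molecules, since Itgax, Itga4 and Cd44 are also expressed by monocytes, dendritic cells or lymphocytes. Counts of called markers stand beside 7.94% of all genes called higher and 9.95% called lower. That is 17.9% in all, or 25.6% of genes averaging at least 1 FPKM. Neutrophil markers dominated, with a summed FPKM of 67342 to 71953 (WT) and 69108 to 78887 (PGRN KO). Of these markers, 2 of 10 (Csf3r, Mmp8) were lower and 0 higher, a share near that background. The number called on each side depended on the scaling. Both with plain totals and with quantile scaling 2 were called higher and 0 lower, so Csf3r and Mmp8 were then not called lower. Of 9 tested monocyte and macrophage markers, 4 were lower (Ms4a6c, Ccr2 and F13a1 among them) and 1 was higher (Ly6c2), with sums of 574 to 581 and 580 to 734. Ly6c2 alone made up 396 to 405 of the WT sums and 442 to 582 of the PGRN KO sums, and 7 of the 9 had a fold change below 0. Of 12 in that list, Mertk was at 0 in all libraries. Of 4 tested dendritic cell markers, 3 were lower (H2-Aa, H2-Ab1 and Cd74), with list sums of 130.1 to 140.4 for WT and 79.6 to 89.9 for PGRN KO. H2-Aa, H2-Ab1 and Cd74 made up nearly all of these sums. Xcr1 averaged 0.342 FPKM and was not called. Flt3, Zbtb46, Siglech, Cd209a, Batf3 and Ccr9 averaged under 0.1 FPKM and were not tested. The fall of H2-Aa from 18.6 ± 0.531 to 6.30 ± 0.366 was larger than that of Itgax. The part of these cells in the changes of Itgax, Itga4 and Cd44 was not tested.

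Markers of early or other lineages were mostly higher in PGRN KO, where 7.94% of all genes were called higher. All 5 promyelocyte markers rose, with sums of 128.7 to 143.8 for WT and 609 to 670.4 for PGRN KO, as did all 5 tested B and plasma cell markers (430.2 to 445 against 2163 to 2455, mostly Igkc). Called higher were also 4 of 5 tested basophil and mast cell markers, 3 of 4 eosinophil, 3 of 4 erythroid, 1 of 3 T and NK cell and 1 of 2 megakaryocyte markers, each list summing to at most 12.5. Endothelial and stromal markers had 2 of 3 lower and summed to at most 6.67. Pax5, Cd3e, Cd3g, Gp1bb and Emcn were at 0 in all libraries. Vcam1 and Selplg rose, as did most of these lists but not the endothelial and stromal one. The part of any of these cells in the values of Vcam1 and Selplg was not tested.

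**Figure D5:**
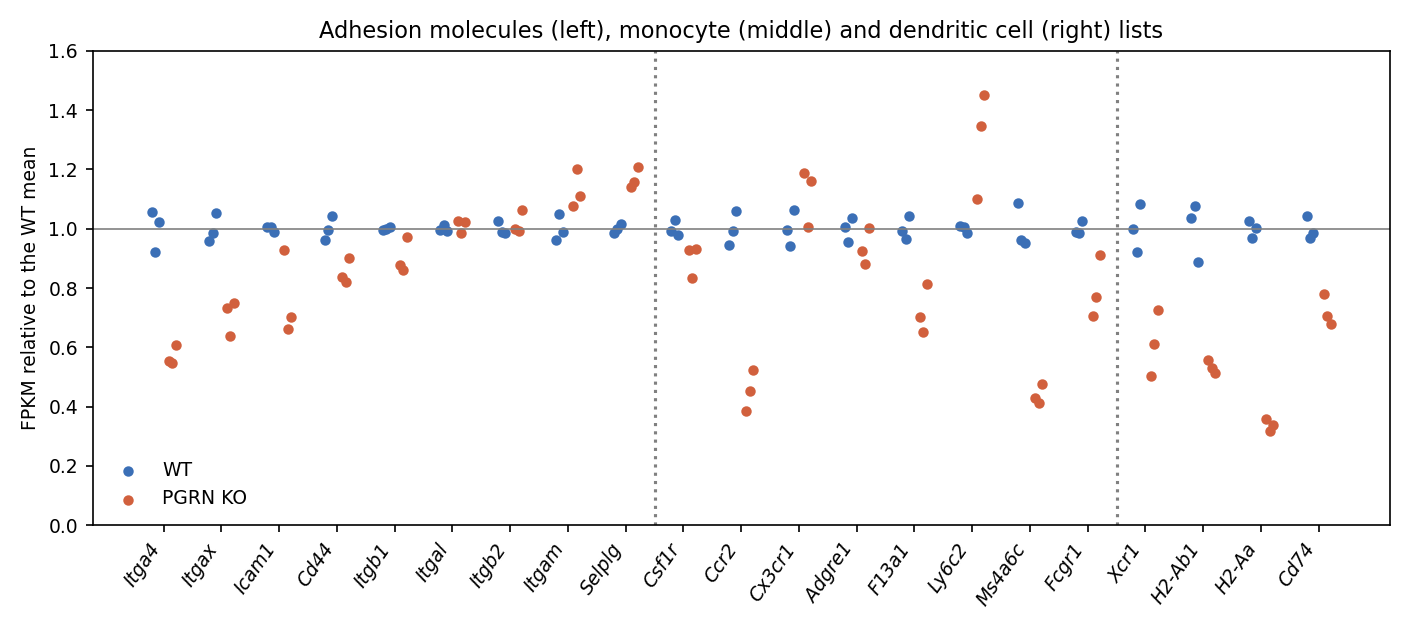
FPKM of each library divided by the WT mean of the gene, for the 9 adhesion molecules (left), 8 of the 9 tested monocyte and macrophage markers (middle) and the tested dendritic cell markers (right). Itga4 and Itgax in PGRN KO lie below 1, as do Ccr2, Ms4a6c, H2-Ab1 and H2-Aa, while Ly6c2 lies above 1.

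The genes most like each member were found as a description, by Pearson's r of log2(FPKM + 1) over the 6 libraries among 3475 genes averaging 10 FPKM or more. With 6 points that share their libraries and split by genotype, many genes reach high values, and no test was made. Itga4 was followed most closely by Ms4a6d (r = 0.997) and Dnaja2 (0.996), and Itgax by Ndel1 (r = 1.00) and Ccrl2 (0.999). For Icam1 these were Sh3gl1 (r = 0.996) and Tmem127 (0.994), and for Selplg Smc2 (r = 0.999) and Cyp51 (0.998). Cd44 had Fnip1 (r = 0.998) and Tlr6 (0.998), and Itgb1 had Parp9 (r = 0.990) and Dtx3l (0.988). Itgam had Yeats4 (r = 0.991) and Pak1ip1 (0.986). The members that did not separate by genotype reached somewhat lower values, Itgb2 with Hsd17b12 (r = 0.986) and Rabif (0.958) and Itgal with Ganab (r = 0.930) and Vcl (0.928).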

How the data were processed

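Neutrophil libraries of 3 WT and 3 PGRN KO cultures were analysed, grouped by their labels, and none was left out. The authors mapped paired-end reads and deposited FPKM values per gene. The study's methods name HISAT and HTSeq, whereas the submitters' processing notes name HISAT2 2.0.5, featureCounts 1.5.0-p3, DESeq2 1.20.0 and builds mm10 and GRCm38. All values above 0, multiplied by gene length, were whole fragments within 0.05, which gave the depth per library. Fragment numbers describe counting error only. All 9 members have the same position in GENCODE M21.

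Log2(FPKM + 1) was compared between genotypes with limma 3.58.1 (lmFit, eBayes with trend) in R 4.3.3, two-sided, for the 14807 genes whose mean FPKM was 0.1 or more. P-values were adjusted by Benjamini-Hochberg over these genes. Ratios were compared by exact permutation in scipy 1.17.1. The fit was run on simulated data without a scaling difference between genotypes, so that run does not bear on the choice of scaling. Alternatives were pseudocounts of 0.1 and 0.01, a filter at a mean of 1 FPKM, no filter, median-of-ratios and quantile scaling, plain totals, voom on the fragments, eBayes without trend and leaving out each replicate.

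The members and lists were chosen with earlier results of these data known. Named were all members, per adhesion list the 4 highest and 4 lowest called genes averaging 1 FPKM or more and any gene averaging 100 or more, the 2 genes most like each member, and of the marker lists the most abundant genes and any at 0. Called markers were named in addition, after their values were seen. A few genes that the rule names are not reported here.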

Additional observations from a re-analysis of the deposited data

How the results depend on the processing

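Of 376 values under alternatives, 313 kept their side of the threshold or moved little. The 313 include every ratio without 1 replicate, judged by whether it shifted by less than its pooled SD. With 3 libraries per group, leaving out 1 cannot shift a ratio that far. Their outcome was thus fixed and says nothing about how stable the ratios are. Itgb2, not called, changed sign to −0.0056 without PGRN KO replicate 6, and the log2 difference of Itgal per Itgb2 changed from −0.0094 to 0.0066 without WT replicate 2 and 0.014 without PGRN KO replicate 6. Itgax, Itga4 and Selplg were called under every scaling, filter, pseudocount and trend setting tried. With plain totals the log2 fold changes were 0.29 for Itgam and 0.13 for Itgal, both then called, and −0.11 for Cd44, no longer called. Quantile scaling gave 0.25 for Itgam (called) and −0.15 for Cd44 (not called). In voom on the fragments Itgam (0.30), Itgb2 (0.15) and Icam1 (−0.28) were called and Cd44 (−0.11) was not. In voom with median-of-ratios library sizes, an alternative chosen after seeing the data, Itgam (0.18) and Icam1 (−0.40) were called. Icam1 was also called (−0.40) with a filter at a mean FPKM of 1, where fewer genes were tested. Cd44 kept its change of −0.23 but lost the call with no filter, where more genes were tested, and with eBayes without trend. Members called higher numbered 3 with plain totals, 2 with quantile scaling, 3 in voom and 2 in voom with median-of-ratios sizes. Called selectin genes numbered 3 with the filter at 1, with plain totals and in voom, and 2 in voom with median-of-ratios sizes. Called immunoglobulin-family genes numbered 8 in voom and called CD44 partners 5 in voom with median-of-ratios sizes, and 4238 genes were called over all genes in voom against 2648. The cause of these shifts was not tested.

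Over the fits without 1 replicate, log2 fold changes ranged from −0.0056 to 0.044 for Itgb2, −0.20 to −0.11 for Itgb1, 0.20 to 0.24 for Selplg, −0.27 to −0.20 for Cd44 and −0.55 to −0.30 for Icam1. Members called ranged from 2 to 5, and members called higher from 0 to 1 (2 called, 0 of them higher, without WT replicate 1, WT replicate 2 or PGRN KO replicate 5). Called genes ranged from 1 to 2 for other integrins, 0 to 2 for selectins, 4 to 10 for integrin activation (lowest without PGRN KO replicate 5), 1 to 4 for sheddases (lowest without WT replicate 2) and 1322 to 2161 over all genes. Itgax and Itga4 had the fewest fragments and so the largest counting error among the members. No paired analysis was possible because the labels do not say whether any WT and PGRN KO cultures belong together.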
